A study of Homo sapiens with 12 samples.

Results

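The mRNAs of the mitochondrial ribosomal proteins were followed through polysome-fraction RNA of 3 triple-negative breast cancer cell lines in which TRMT112 was lowered or raised. The members were all protein-coding gene symbols made of MRPL (large subunit) or MRPS (small subunit), a number and an optional letter. There were 78 of them, 49 MRPL and 29 MRPS, among 24559 gene symbols, and their 536 transcripts were summed per gene. MDA-MB-231 and SUM159 cells carried a TRMT112 shRNA (KD) or the control labelled EV, which the methods describe as a non-silencing shRNA. BT549 cells carried a TRMT112 open reading frame (OE) or the empty expression vector (EV). Each of the 6 groups had 2 libraries. Constructs were introduced with a lipid reagent and selected with puromycin (KD) or G418 (OE), all cells were exposed to cycloheximide at harvest, and RNA came from the pooled polysome fractions of a sucrose gradient. No source says that the 2 libraries of a group came from separate cultures, so the p-values measure the spread between these libraries only, which may be technical. Total RNA was not analysed here, so a change in the amount of an mRNA and a change in its ribosome loading cannot be told apart, and neither can a change in the cells that make up a line.

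Mitochondria carry their own ribosome, which translates only the few mRNAs encoded in mitochondrial DNA, all for subunits of the respiratory chain and ATP synthase. Its rRNAs are mitochondrial, but its proteins are encoded in the nucleus, translated on cytosolic ribosomes and imported, so their mRNAs are found on cytosolic polysomes like those of other nuclear genes. Some of these proteins descend from bacterial ribosomal proteins and others were added in the mitochondrial lineage. TRMT112 is a small activator protein for several methyltransferases, including those that modify cytosolic rRNA.

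TRMT112 followed the labels in all 3 lines. Its normalized counts (expected counts scaled to the mean effective library size of 23907944) were 4147 and 3938 in MDA-MB-231 EV against 1764 and 1682 in KD, a log2 fold change of -1.23 ± 0.04 (SE). In SUM159 they were 6332 and 6566 against 3908 and 3699 (-0.76 ± 0.04), and in BT549 3076 and 3087 against 4286 and 4320 in OE (0.48 ± 0.04). Library totals ran from 22954226 to 27434677 counts. The median absolute log2 difference between the libraries of a group was 0.0386 to 0.0635 over the members and 0.0809 to 0.0991 over all genes tested.

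Of the markers listed for the lines, ESR1 and KRT5 were not analysed here, PGR was listed at 0 in 5 groups and at 5.9 in BT549 EV, and ERBB2 lay between 1413 and 3360. VIM, a mesenchymal marker, was abundant in every group (17136 to 47402). The epithelial keratin KRT18 was at 4515 to 9774 in MDA-MB-231 and SUM159 but at 6.1 and 5.6 in the BT549 groups, and KRT8 went the same way. Other epithelial markers did not: CDH1 was at 7.1 or below in MDA-MB-231 and SUM159 and at 57.2 and 20.7 in BT549 EV and OE. KRT19 stayed at 16.0 or below in every group. EPCAM was at 70.9 and 54.2 in MDA-MB-231 and at 2.5 or below in SUM159 and BT549. The BT549 comparison stood apart in size. The median absolute log2 fold change over all 16538 genes tested was 0.70 for OE against EV, close to the 0.78 to 0.99 found between EV groups of different lines, while it was 0.23 for KD in MDA-MB-231 and 0.46 in SUM159. Markers of other cells moved with it: CD68 was at 4210 in BT549 EV and 165 in OE (4328 in MDA-MB-231 EV), and the fibroblast genes DCN, LUM and PDGFRA were at 0, 0 and 7.2 in EV and at 186, 77.2 and 254 in OE. Of the other leukocyte and endothelial markers, PTPRC stayed at 10.1 or below, and CD3E and VWF were not analysed here. Markers also moved in the KD lines: from SUM159 EV to KD, DCN went from 72.5 to 27.5, PDGFRA from 56.4 to 4.2, FN1 from 5398 to 15156 and PECAM1 from 24.7 to 95.8, and from MDA-MB-231 EV to KD, CDH5 went from 15.8 to 88.2. Whole chromosomes also moved: the 789 genes tested on chromosome 16 had a median of 0.99 in OE against EV, with 70.5% called higher. The part of these differences in the results of each line was not tested.

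Promoter sequences from RefSeq (GRCh38.p14, from 250 bases before to 50 bases after the annotated start) matched 69 of the 78 members, and are shown for 3 whose mRNAs carry the results below: MRPS9, the member that fell most in SUM159 KD, MRPL52, which rose most there, and MRPS34, which rose most in BT549 OE. Capitals mark the letters searched on both strands, namely an ETS core (CCGGAAG), a YY1 core (ATGGCGG), an NRF1 core (GCATGCG) and an Sp1 core (GGGCGG), none of which contains another. The windows lie at chr2:105037819-105038118 (plus strand) for MRPS9, chr14:22829637-22829936 (plus strand) for MRPL52 and chr16:1773085-1773384 (minus strand) for MRPS34.
MRPS9: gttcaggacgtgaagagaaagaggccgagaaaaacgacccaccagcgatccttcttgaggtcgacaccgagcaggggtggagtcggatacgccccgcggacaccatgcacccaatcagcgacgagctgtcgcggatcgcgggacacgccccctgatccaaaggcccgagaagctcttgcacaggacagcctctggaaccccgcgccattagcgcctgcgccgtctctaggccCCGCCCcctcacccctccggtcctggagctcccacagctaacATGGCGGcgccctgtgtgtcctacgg
MRPL52: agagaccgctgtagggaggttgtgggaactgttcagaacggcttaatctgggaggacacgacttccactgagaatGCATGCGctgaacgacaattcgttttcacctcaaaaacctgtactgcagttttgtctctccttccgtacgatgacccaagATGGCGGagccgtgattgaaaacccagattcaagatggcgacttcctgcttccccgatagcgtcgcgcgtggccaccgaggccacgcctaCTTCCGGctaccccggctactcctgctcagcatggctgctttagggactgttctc
MRPS34: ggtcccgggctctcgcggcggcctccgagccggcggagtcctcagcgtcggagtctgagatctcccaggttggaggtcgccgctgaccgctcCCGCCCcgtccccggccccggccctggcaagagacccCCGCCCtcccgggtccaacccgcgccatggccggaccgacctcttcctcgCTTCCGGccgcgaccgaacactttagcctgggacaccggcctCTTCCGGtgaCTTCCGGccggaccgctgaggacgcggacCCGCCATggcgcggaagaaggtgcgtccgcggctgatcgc
The ETS core stood in 29 of the 69 member promoters (42.0%), against 18.4% of the 11857 promoters of genes tested and 10.7% of all 27305. The YY1 core stood in 24 (34.8%, against 9.83% and 5.72%). The 2 subunits were alike in this, with 40.5% of the 42 large-subunit and 44.4% of the 27 small-subunit promoters holding the ETS core, and 33.3% and 37.0% the YY1 core. Shares for the NRF1 core (10.1% against 6.17% of genes tested), the E-box CACGTG (8.7% against 9.89%) and the Sp1 core (60.9% against 69.3%) lay closer to the background. The MRPS9 promoter, of a gene that fell in one line, and the MRPS34 promoter, of a gene that rose in another, both held the YY1 and Sp1 cores.

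All 78 members were detected and passed the filter on low counts. Levels per kilobase of transcript (mean normalized count over the 12 libraries divided by the count-weighted transcript length) differed from 275 for MRPL57 to 5228 for MRPS34. The highest of the large subunit were MRPL4 (5017), whose bacterial relative lines the exit tunnel, MRPL51 (4821) and MRPL41 (4751), and the highest of the small subunit after MRPS34 were MRPS24 (4194) and MRPS26 (2525). The lowest were MRPL57 and MRPL50 (417) in the large subunit and MRPS31 (295) and MRPS14 (451) in the small. Most of these proteins are present in a single copy per ribosome, with MRPL12 an exception. For 36 members the annotation holds pseudogene loci, 81 in all, with which reads may have been shared. Among them are MRPS21, with 8 loci, and MRPL57 and MRPS31, with 5 each, which are named for their changes below.

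**Figure D1:**
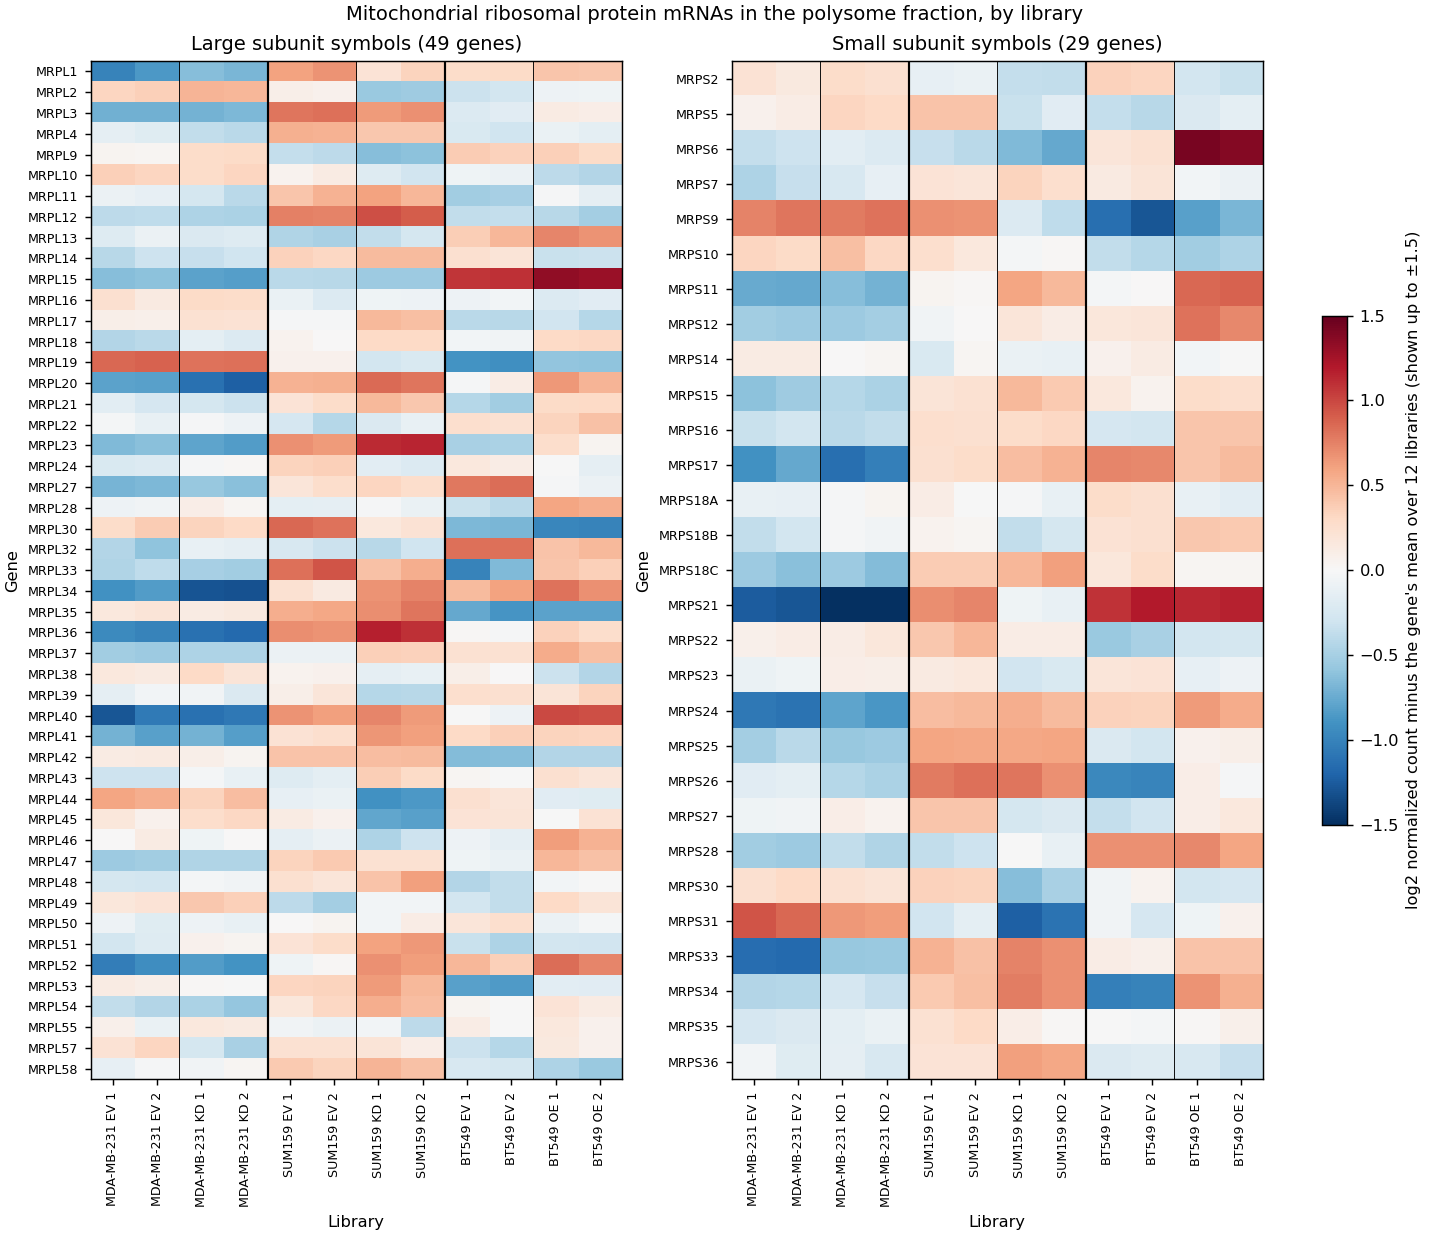
Heat map of all 78 members (rows, in number order within each subunit) in the 12 libraries (columns), as the log2 normalized count minus the gene's mean over the libraries. The 2 libraries of a group look alike throughout, MRPS21 is lowest in MDA-MB-231, MRPS9 is lowest in BT549, and MRPS6 is highest in BT549 OE.

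Summed over all members, the normalized counts of the MDA-MB-231 EV libraries came to 144266 and 145021 and those of KD to 151701 and 149521, a ratio of 1.04. The SUM159 EV libraries had 193115 and 193724 and the KD libraries 195630 and 194065, a ratio of 1.01. The BT549 EV libraries had 164102 and 163372 and the OE libraries 190014 and 185171, a ratio of 1.15. The groups did not overlap in any line, and an exact two-sided permutation test of 2 against 2 libraries gave its smallest possible value, p = 0.333, each time. As a share of all counts without composition scaling, the members went from 0.671% and 0.677% to 0.663% and 0.656% in MDA-MB-231 and from 0.84% and 0.841% to 0.826% and 0.824% in SUM159, the opposite direction, whereas in BT549 they went from 0.615% and 0.613% to 0.716% and 0.71%, the same direction. The total thus moved little with KD, and its direction there depended on the scaling.

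In MDA-MB-231 KD, 23 members rose and 13 fell at an adjusted p under 0.05 (edgeR quasi-likelihood test), 46.2% of members against 37.7% of all genes tested (21.2% higher and 16.5% lower). With a mean of at least 50 counts, which all members had, 23 rose and 16 fell, against 26.4% and 22.8% of 12590 genes. The share of members called was then close to that of genes at large. The split was not stable to scaling: with library size alone 11 rose and 27 fell, while the median of all genes shifted by -0.08. Changes were small, with a median absolute log2 fold change of 0.12 over the members and 0.23 over all genes, and 2 called members reached 0.5, against 1686 of 16538 genes. MRPS33, a small-subunit protein added in the mitochondrial lineage, rose most: its counts were 393 and 389 in EV and 588 and 594 in KD (0.60 ± 0.07, adjusted p = 3.55e-07). MRPL57 fell most, from 699 and 757 to 504 and 431 (-0.64 ± 0.08, adjusted p = 9.78e-07). In both genes the KD libraries lay clear of the EV libraries, which was so for 66.0% of all genes tested. MRPL32, the bL32 homolog that is matured by an inner-membrane protease, rose by 0.39 ± 0.05, MRPL51 by 0.29 ± 0.04, MRPS18B by 0.28 ± 0.04 and MRPL1 by 0.27 ± 0.09. MRPL34, from 507 and 535 to 390 and 384, had -0.43 ± 0.08, MRPS21 -0.37 ± 0.07, MRPL20 -0.37 ± 0.07 and MRPS26 -0.29 ± 0.05. The rise of MRPL1 (adjusted p = 0.0195) was lost with library size alone and on leaving out single libraries.

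In SUM159 KD, 31 members rose and 31 fell, 79.5% of members against 60.1% of all genes (28.6% higher and 31.4% lower). With a mean of at least 50 counts, 35 rose and 30 fell, against 35.8% and 37.4% of 12590 genes. Changes of the members were smaller than those of genes at large: the median absolute log2 fold change was 0.26 over the members and 0.46 over all genes, and 15 of 78 members were called with a change of 0.5 or more on the log2 scale, against 5776 of 16538 genes. Of these 15 members 12 were lower. MRPS9, whose bacterial relative touches the P-site tRNA with its tail, went from 1371 and 1363 to 740.0 and 658 (-0.97 ± 0.06, adjusted p = 4.83e-12). MRPS31 went from 326 and 358 to 169 and 184 (-0.95 ± 0.11), and MRPS30 from 2363 and 2337 to 1196 and 1330.2 (-0.89 ± 0.05). MRPL45, which lies at the exit tunnel and helps to hold the ribosome at the inner membrane, went from 1549 and 1489.9 to 831 and 814 (-0.89 ± 0.07). In each of these both KD libraries lay below both EV libraries, and 76.7% of all genes tested likewise had groups that did not overlap. MRPS21 had -0.80 ± 0.05. Among the rises, MRPL52 went from 966 and 1023 to 1624 and 1565 (0.68 ± 0.06, adjusted p = 9.22e-10), and MRPL34 from 1118 and 1052 to 1526 and 1594 (0.53 ± 0.06). MRPS11 (0.51 ± 0.05), MRPL43 (0.50 ± 0.04) and MRPL17 (0.49 ± 0.04) followed, and all stood above both EV libraries.

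**Figure D2:**
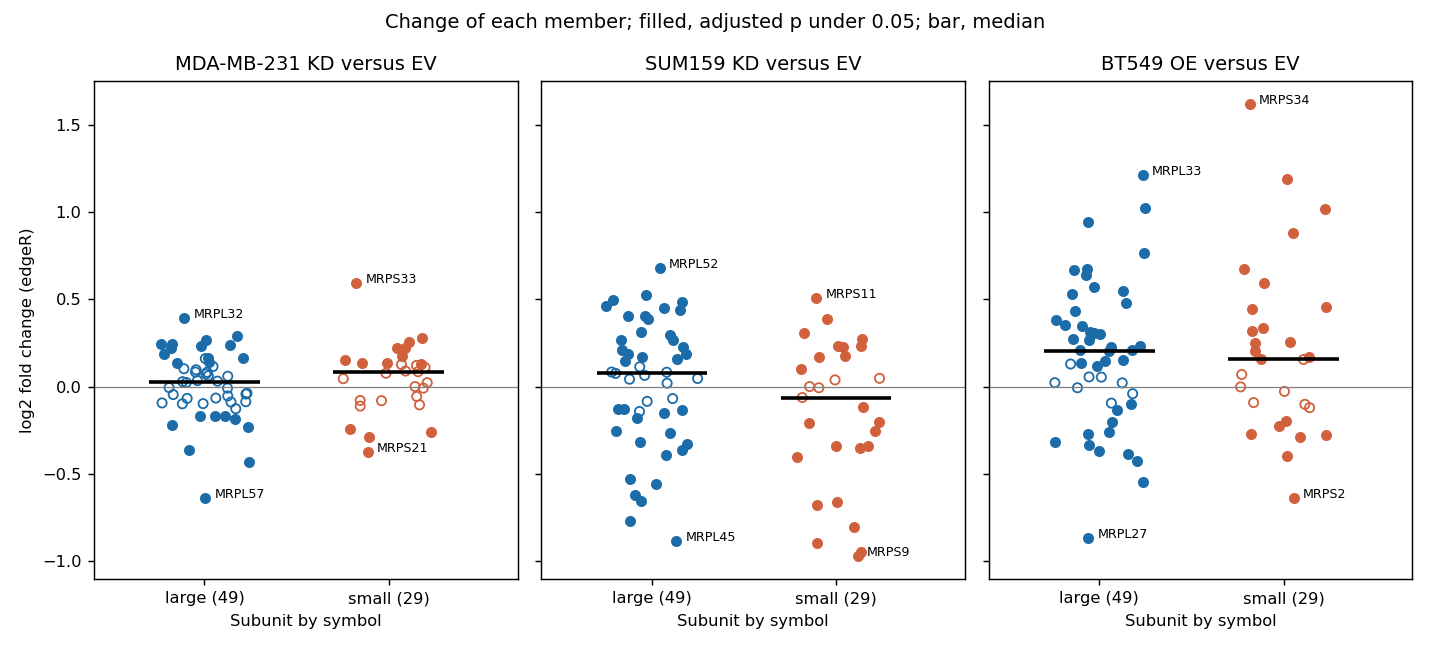
Log2 fold change of each member (edgeR) in the 3 treatment comparisons, large and small subunit side by side; filled points passed an adjusted p of 0.05 and bars are medians. The spread is narrowest in MDA-MB-231 KD, the small-subunit median lies below 0 in SUM159 KD alone (-0.06), and in BT549 OE most points lie above 0.

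The 2 lines answered KD differently. The difference of the KD effects (SUM159 minus MDA-MB-231, tested in the same fit) was called for 25 members as higher and 30 as lower, 70.5% against 50.9% of all genes (23.2% higher and 27.7% lower). The balance depended on the setting. It was 33 and 29 with library size alone, 29 and 30 with RLE size factors and 34 and 29 with only the groups compared. With a mean of at least 50 counts it was 32 and 30, against 30.5% and 33.1% of 12590 genes. Called in opposite directions in the 2 lines were 16 members (20.5%, against 12.2% of all genes), of which 11 rose in MDA-MB-231 and fell in SUM159 (7.37% of all genes did so) and 5 did the reverse (4.87%). MRPL45 differed most in this way: in MDA-MB-231 its counts were 1606 and 1488 in EV and 1707 and 1764 in KD (0.17 ± 0.06, a call lost under several alternatives), and the difference from its fall in SUM159 was -1.05 ± 0.09 (adjusted p = 4.78e-10). MRPS5, a homolog of the bacterial protein at the mRNA entry, had 0.22 and -0.68 (difference -0.90 ± 0.07), the first lost on the main transcript alone. MRPS27, a pentatricopeptide-repeat protein, had 0.14 and -0.66 (difference -0.79 ± 0.05), and its MDA-MB-231 call was lost with library size alone, with protein-coding transcripts only and on leaving out EV or KD library 1. MRPL2, the homolog of the core protein near the peptidyl transferase center, had 0.17 and -0.62 (difference -0.79 ± 0.06), the first lost with library size alone. MRPL34 went the other way, with -0.43 and 0.53 (difference 0.95 ± 0.10). The opposite calls were counted with the main scaling only. With library size alone, the MDA-MB-231 KD calls they rest on turned to 11 higher and 27 lower. The shares of all genes beside them include genes with a mean under 50 counts, which no member had.

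Slightly fewer members were called in the same direction in both lines, also with the main scaling only. The 9 members that rose in both (11.5%, against 8.86% of all genes) were MRPL17, MRPL18, MRPL43, MRPL48, MRPL49, MRPL51, MRPS7, MRPS33 and MRPS34. For MRPL51 the counts were 3381 and 3565 in MDA-MB-231 EV, 4264 and 4219 in KD, 4706 and 4931 in SUM159 EV and 6203 and 6413 in KD, with log2 fold changes of 0.29 and 0.39. MRPL18 had 0.25 and 0.27, MRPL43 0.24 and 0.50, and MRPL48 0.23 and 0.32. The 5 that fell in both (6.41%, against 7.47%) were MRPL4, MRPL15, MRPL44, MRPS21 and MRPS31. MRPS21 was the clearest of these, from 524 and 512 to 406 and 395 in MDA-MB-231 and from 2018 and 2076 to 1194 and 1152 in SUM159. MRPL44, a protein with an RNase III fold, had -0.17 and -0.77, the first of which was lost in several alternatives. MRPL4 (-0.23, -0.13 and 0.14) and MRPL15 (-0.18, -0.13 and 0.23) fell in both KD lines and rose in BT549 OE, while MRPS7 rose in both (0.22 and 0.10) and fell in OE (-0.22). The SUM159 calls of these 3 genes were not stable: that of MRPL4 was lost with RLE size factors, that of MRPL15 with RLE size factors and DESeq2, and that of MRPS7 with library size alone, the main transcript alone, no filter and on leaving out either EV library or KD library 1. Such full opposition held in 2 members for the first direction (2.56%, against 2.99% of all genes) and 1 for the second (1.28%, against 3.83%), shares that were below those of all genes. MRPL55 and MRPS14 were called in none of the 3 lines (2.56%, against 14.3% of all genes), and 24 members in all 3 (30.8%, against 23.9%).

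**Figure D3:**
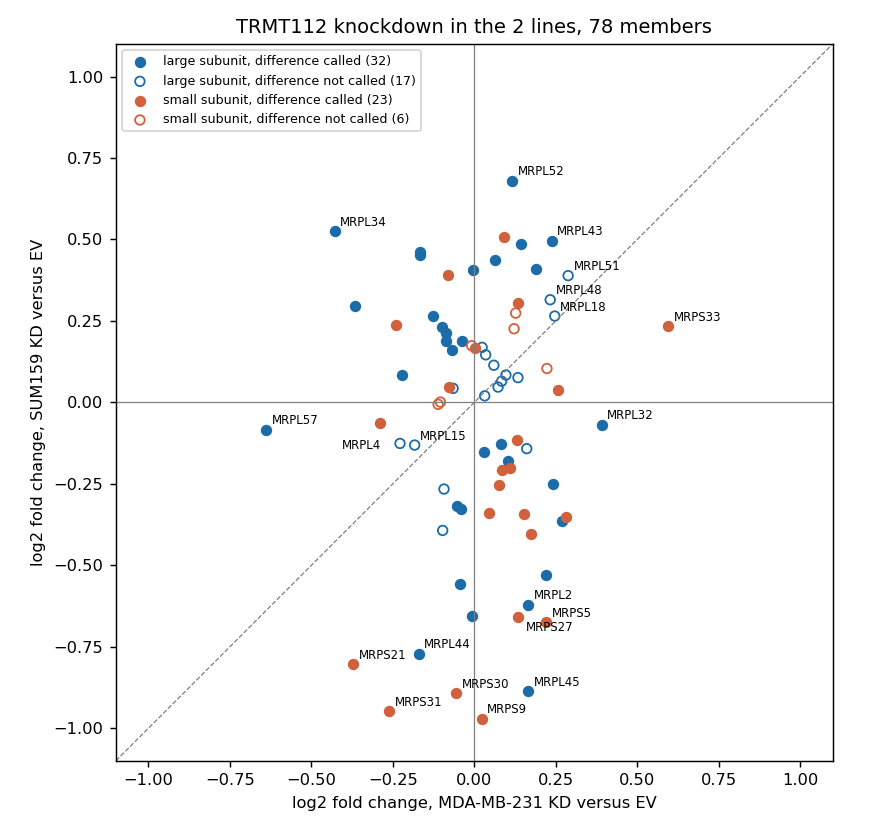
Log2 fold change (edgeR) of each member in SUM159 KD against that in MDA-MB-231 KD; filled points are members whose difference between the lines was called, and the dashed line marks equal effects. Points extend further along the SUM159 axis, and MRPL45, MRPS5, MRPS27 and MRPL2 lie at the lower right and MRPL34 at the upper left.

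In SUM159 KD the change went with coding length. Length was taken from the transcript with most counts among those with an annotated coding sequence. For MRPL11 this was a nonsense-mediated decay form of 225 coding bases, shorter than its leading protein-coding forms (498 to 576). Over the 78 members, Spearman's rho between the coding length of the main coding transcript and the log2 fold change was -0.51 (-0.51 in the large and -0.52 in the small subunit), against -0.21 over 13871 protein-coding genes tested. These are descriptions across genes, which share libraries and are not replicates. Of the 26 members with the longest coding sequences (753 to 1317 bases), 22 fell and 2 rose, with a median of -0.32, whereas of the 3728 protein-coding genes in that length range 33.7% fell and 33.2% rose, with a median of 0.00. MRPS9, MRPS31, MRPS30, MRPL45, MRPL44, MRPS5, MRPS27 and MRPL2 all belong to these 26, and MRPS15 (0.23) and MRPL37 (0.44) were those that rose. Of the 26 shortest (195 to 459 bases), 15 rose and 3 fell, with a median of 0.17, close to the 0.27 of the 1203 genes of that range, of which 49.4% rose and 16.3% fell. MRPS21, with 261 coding bases, and MRPL33, with 195, were short members that fell. In MDA-MB-231 KD rho was 0.24, against 0.04 over all protein-coding genes. Of the shortest members 11.5% rose and 30.8% fell, near the 12.6% and 32.1% of genes of that length, and of the longest 30.8% rose and 15.4% fell, near the 28.5% and 14.6%. Of the 26 members between them, 12 rose and 1 fell (46.2% and 3.85%, against 26.6% and 17.4%). In BT549 OE it was weak (-0.13, against -0.11). Between controls, rho with coding length was 0.35 for MDA-MB-231 against SUM159 (0.07 over all protein-coding genes). It was -0.25 for BT549 against MDA-MB-231 (-0.04) and -0.03 for BT549 against SUM159 (0.01). A relation with length was thus not particular to SUM159 KD. There, the members also had rho of 0.29 with the GC percent of the transcript (0.13) and -0.27 with its length (-0.09).

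**Figure D4:**
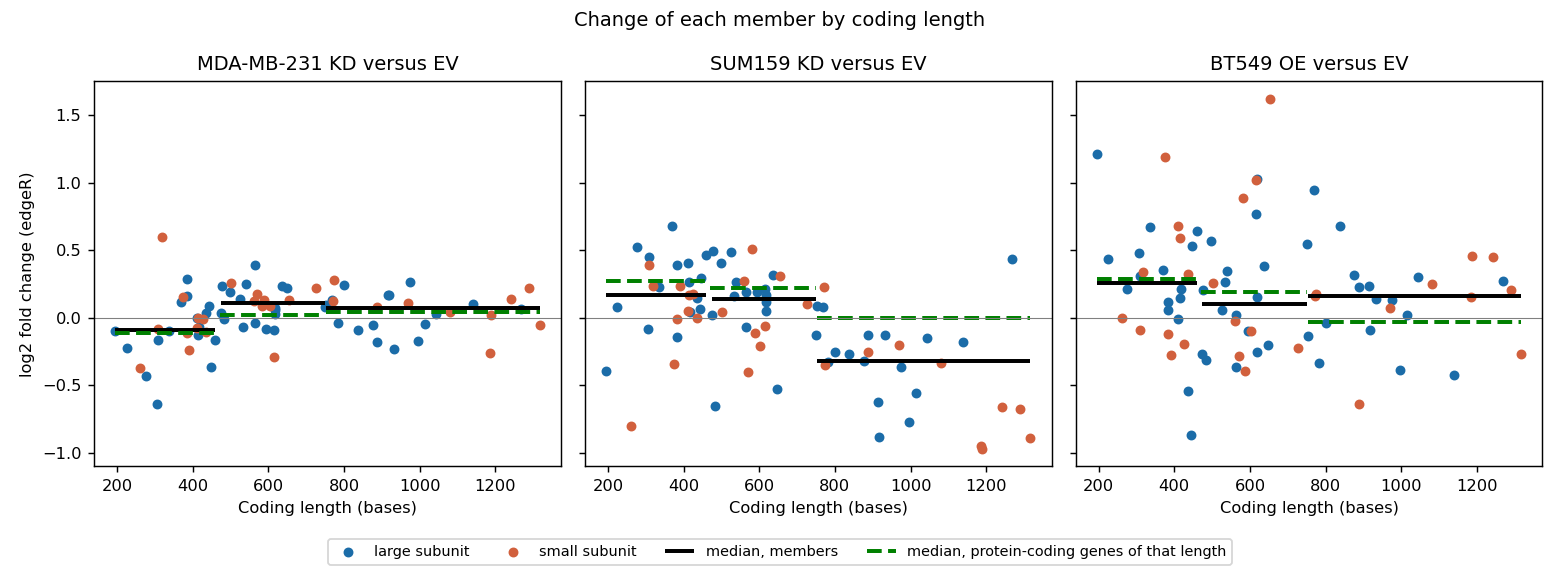
Log2 fold change of each member (edgeR) against the coding length of its main coding transcript in bases, in the 3 treatment comparisons; black lines are medians of 26 members each and dashed green lines medians of the protein-coding genes of the same lengths. In SUM159 KD the black line of the longest members lies at -0.32 and the green line at 0.00.

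By position, in SUM159 KD, 6 of the 8 members on chromosome 2 fell and 2 rose (median -0.52), and the 1084 genes tested on that chromosome had a median of -0.23 and 44.3% of them were lower.

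Large against small subunit was compared in each library as the mean log2 CPM of the 49 MRPL genes minus that of the 29 MRPS genes. SUM159 went from -0.023 and -0.037 to 0.134 and 0.146 with KD, a shift of 0.171. MDA-MB-231 went from 0.059 and 0.054 to 0.022 and 0.012 with KD, a shift of -0.039, and BT549 from -0.021 and -0.027 to -0.045 and -0.079 with OE, a shift of -0.038. The groups did not overlap in any line, with p = 0.333 in each exact permutation test, the smallest that 2 against 2 libraries allow. The SUM159 shift came with 21 large-subunit genes higher and 17 lower (median 0.08) against 10 higher and 14 lower in the small subunit (median -0.06). With RLE size factors these were 27 and 14 (median 0.13) against 12 and 13 (median -0.01). As a ratio of summed counts, large to small was 1.745 and 1.734 in SUM159 EV and 1.946 and 1.974 in KD, and 1.838 and 1.813 in BT549 EV and 1.667 and 1.645 in OE, where the shift on the log2 scale was -0.14 by this measure against -0.038 by mean log2 CPM. MRPS30, despite its symbol, is a large-subunit protein by structure (mL65), as is MRPS18A (mL66), while MRPS36 is counted in neither. Placing them so reduced the SUM159 shift to 0.144 and took the BT549 shift to -0.111, so the size of the BT549 shift depended on the measure.

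**Figure D5:**
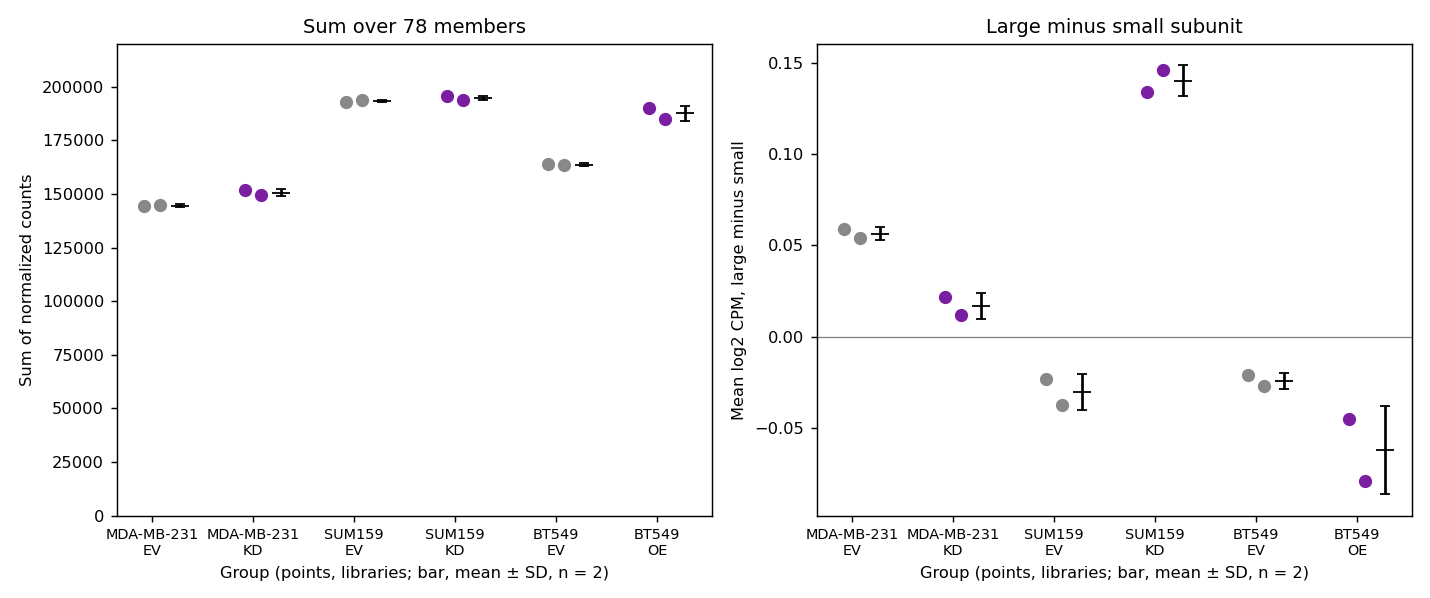
Left, sum of normalized counts over the 78 members in each library; right, mean log2 CPM of the large-subunit genes minus that of the small-subunit genes; grey points are EV and purple points KD or OE libraries, and bars are mean ± SD (n = 2). SUM159 KD stands at 0.134 and 0.146 on the right, above all other groups, while its sum on the left is close to that of EV.

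The paralogs MRPS18A, MRPS18B and MRPS18C descend from the bacterial protein S18 and did not move together. In SUM159 KD, MRPS18B fell (-0.35 ± 0.04), MRPS18A fell slightly (-0.12 ± 0.05, adjusted p = 0.0436) and MRPS18C rose (0.17 ± 0.06). In MDA-MB-231 KD, MRPS18B rose (0.28) and MRPS18A rose (0.13), and MRPS18C had -0.01 (adjusted p = 0.972). In BT549 OE, MRPS18B rose (0.17) while MRPS18A (-0.40) and MRPS18C (-0.20) fell. By the unified nomenclature, which gives MRPS18A and MRPS18B mitochondria-specific names and MRPS18C a bacterial one, 46 members have bacterial names and 31 mitochondria-specific names. In MDA-MB-231 KD 26.1% of the former rose and 19.6% fell, against 35.5% and 12.9% of the latter. In SUM159 KD these shares were 41.3% and 39.1% against 35.5% and 41.9%, and in BT549 OE 54.3% and 26.1% against 61.3% and 22.6%. The difference between the classes was not tested.

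In BT549 OE, 44 members rose and 19 fell, 80.8% of members against 70.6% of all genes tested (35.6% higher and 35.0% lower), and the members leaned to higher values (56.4% higher, against 35.6% of all genes) with a median log2 fold change of 0.17, against 0.02 over all genes. The median absolute log2 fold change was 0.28 over the members and 0.70 over all genes, and 19 members against 8402 of 16538 genes were called with a change of 0.5 or more. The lean held with the other scalings, at 43 higher and 19 lower or 44 and 18. MRPS34 rose most, from 2338 and 2369.6 to 7577 and 6910 (1.62 ± 0.05, adjusted p = 2.25e-19). It lies on chromosome 16, whose genes as a whole rose by a median of 0.99 as given above. MRPL33, a small protein homologous to bacterial L33, went from 207 and 261 to 553 and 532 (1.21 ± 0.10), and MRPS6 from 1980 and 2055 to 4682 and 4545 (1.19 ± 0.04). MRPL40, from 634 and 606 to 1272 and 1251, had 1.03 ± 0.07, and MRPS26, from 1194 and 1180.4 to 2499 and 2317, had 1.02 ± 0.05. In each of these the OE libraries lay above both EV libraries, and groups did not overlap in 82.9% of all genes tested. The chromosomes of MRPS6 (21), MRPL40 (22) and MRPS26 (20) had medians of 0.32, 0.17 and 0.42 over all their genes. Of the falls, MRPL27, a homolog of the bacterial protein whose end reaches the peptidyl transferase center, went from 3071 and 3190.1 to 1757 and 1679 (-0.87 ± 0.05). MRPS2 had -0.64 ± 0.04, MRPL14 -0.54 ± 0.04, MRPL38 -0.43 ± 0.05 and MRPS18A -0.40 ± 0.05. MRPL27 and MRPL38 lie on chromosome 17, where 7 of 8 members fell and none rose, while its 1029 genes tested had a median of -0.16 with 42.6% lower. All 4 members on chromosome 3 and all 4 on chromosome 19 rose, where 40.9% (median 0.14) and 32.4% (median -0.01) of all genes were higher.

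Between the control groups more members were called than with any treatment. In MDA-MB-231 EV 14 were higher and 55 lower than in SUM159 EV, 88.5% against 75.7% of all genes tested (36.4% higher and 39.2% lower), with a median of -0.44 against -0.03. BT549 EV against MDA-MB-231 EV gave 41 higher and 30 lower (91.0%, against 79.5% of all genes, 39.1% higher and 40.4% lower), and against SUM159 EV 23 higher and 44 lower (85.9%, against 78.4%, 37.7% higher and 40.7% lower). A mean of at least 50 counts left 12590 genes. In the same order, 40.3% and 43.9%, 43.0% and 44.2%, and 41.5% and 45.3% of them were higher and lower. Members higher and lower were then 17 and 54, 40 and 31, and 23 and 44. Library size alone turned the BT549 comparison with MDA-MB-231 to 27 higher and 40 lower and that with SUM159 to 14 and 52, while the medians of all genes moved to -0.34 and -0.27. SUM159 EV had the highest total of the 3, and the comparisons share groups. The BT549 control differed from those of MDA-MB-231 and SUM159 in vector and selection drug. The culture medium also differed between the lines. These differences cannot be told apart from those of the lines. Groups did not overlap in 86.4%, 88.2% and 87.7% of all genes in the 3 comparisons. MRPS21 spanned the widest range, with 524 and 512 in MDA-MB-231 EV, 2018 and 2076 in SUM159 EV and 2641 and 2848 in BT549 EV. The differences in log2 were -1.98 ± 0.06 for MDA-MB-231 against SUM159 and 2.41 ± 0.06 for BT549 against MDA-MB-231. MRPL40 (-1.81) and MRPL36 (-1.66) were the next lowest in MDA-MB-231 against SUM159, and MRPS31 (1.11), MRPL19 (0.81) and MRPL44 (0.68) the highest. In BT549 EV, MRPS9 was at 391 and 351, far below the 1431 and 1485 of MDA-MB-231 EV (-1.97 ± 0.07) and the 1371 and 1363 of SUM159 EV (-1.88 ± 0.07). MRPL19 (-1.78) and MRPS31 (-1.05) were low against MDA-MB-231, and MRPS26 (-1.78) and MRPL33 (-1.71) against SUM159. MRPL15 was high against both, by 1.72 and 1.5, with counts of 5209 and 5262 in BT549 EV. MRPS17 (1.56) followed against MDA-MB-231, and MRPL32 (1.11) and MRPS28 (1.02) against SUM159.

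Some of these differences ran along chromosomes. All 8 members on chromosome 2, which include MRPS9, MRPL19 and MRPL33, were lower in BT549 EV than in MDA-MB-231 EV, with a median of -0.97, and 7 of the 8 were lower than in SUM159 EV, with a median of -1.28. The 1084 genes tested on that chromosome had medians of -0.66 and -0.70. The 3 members on chromosome 8, among them MRPL15 and MRPS28, were all higher in BT549 EV, with medians of 1.22 and 1.02, against 0.96 and 0.86 over its 605 genes. Chromosome copy number was not measured, and its part in these values was not tested.

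Most gene levels rested on a main transcript. It held over 90% of the gene's counts in 41 members and under 50% in 8, and protein-coding transcripts held 95.8% to 96.6% of all member counts. The main transcript of MRPS11 is annotated as a retained intron and held 40.2% to 53.8% of its counts, with the leading coding form at 21.6% to 28.2%. For MRPL11, a transcript annotated for nonsense-mediated decay held 29.5% to 32.6% and led in 4 of the 6 groups. The main transcript differed between groups in 7 members. In MRPL43 the form that led in SUM159 (67.5% in EV and 72.4% in KD) held 32.6% and 26.2% in the BT549 groups, where another coding form led (40.1% and 42.8%). In MRPL52 the form that led in MDA-MB-231 (46.9% and 44.4%) gave way to another in SUM159 and BT549 (40.3% to 54.8%). The leading form also changed in MRPL24, MRPL55, MRPS25 and MRPS33. In MRPS33 the 2 leading coding forms held 34.0% and 26.1% in MDA-MB-231 EV and 33.1% and 34.4% in KD, and on its main transcript alone the rise with KD was 0.57 but did not pass the test.

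Several members share a start region with a neighbor read in the opposite direction. A divergent protein-coding partner lay within 1000 bases for 17 members, and in 1 pair, MRPL46 and MRPS11 on chromosome 15 with starts 63 bases apart, both were members. In SUM159 KD, MRPL46 fell (-0.27) and MRPS11 rose (0.51), while in BT549 OE both rose (0.68 and 0.88). MRPS12, homolog of the bacterial accuracy protein S12, and SARS2, the mitochondrial seryl-tRNA synthetase, start 181 bases apart and had 0.17 and -0.77 in SUM159 KD. For MRPL18 and TCP1, a chaperonin subunit 109 bases away, the values there were 0.27 and -0.42. MRPL36 and NDUFS6, a complex I subunit gene 41 bases away, rose together in SUM159 KD (0.45 and 0.68) and in BT549 OE (0.31 and 0.42). MRPL49 and FAU also rose together, with 0.41 and 0.28 in SUM159 KD and 0.57 and 0.73 in OE. MRPS12 and SARS2, unlike in SUM159 KD, had 0.59 and 0.56 in OE. MRPL32 and PSMA2 had 0.39 and 0.51 in MDA-MB-231 KD and -0.37 and -0.54 in OE. MRPL30 and MITD1 had -0.66 and -0.48 in SUM159 KD and -0.32 and -0.65 in OE. These pairs are examples and not all that moved together or apart.

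Most lists of other pathway genes leaned to lower values in SUM159 KD, unlike the members as a whole (31 higher and 31 lower). Of the 26 members with the longest coding sequences, however, 22 also fell, with a median of -0.32. The lists were not compared with members of like coding length. Of 29 genes for assembly and rRNA modification of the mitochondrial ribosome, 21 fell and 5 rose (median -0.37), against 31.4% of all genes lower. They included C1QBP (-0.71 ± 0.04) and the helicase DHX30 (-0.79 ± 0.05). Of 18 translation factors 10 fell and 1 rose, among the former LRPPRC (-0.98 ± 0.06), which stabilizes mitochondrial mRNAs, and the GTPase GUF1 (-0.78 ± 0.05), and of 6 transcription genes 5 fell and none rose, with the mitochondrial RNA polymerase POLRMT at -1.16 ± 0.07 and TFB2M at -1.04 ± 0.07. Among 5 mitoribosome proteins with other symbols, DAP3 (-0.99 ± 0.05) and PTCD3 (-1.17 ± 0.06) fell and the other 3 rose. In MDA-MB-231 KD the same lists had 4 assembly genes lower and 6 higher (13.8% and 20.7%, near the 16.5% and 21.2% of all genes), among them MTG1 (0.81 ± 0.08) and NGRN (-0.34 ± 0.05), 5 factors lower and 5 higher, among them SLIRP (-0.73 ± 0.08) and GFM2 (0.53 ± 0.06), 1 transcription gene lower (POLRMT, -0.40 ± 0.06) and 1 higher (MTERF1, 0.40 ± 0.14), and 3 of the 5 other mitoribosome proteins lower, including PTCD3 (-0.40 ± 0.06) and GADD45GIP1 (-0.27 ± 0.04). In BT549 OE, 11 assembly genes rose and 8 fell (37.9% and 27.6%, against 35.6% and 35.0% of all genes), with NGRN at 1.46 ± 0.05 and C1QBP at 1.06 ± 0.04. Of the factors 8 rose and 9 fell, among them the elongation factor TUFM (1.17 ± 0.03) and its exchange factor TSFM (-0.95 ± 0.05), 2 transcription genes rose and 4 fell, POLRMT at 0.97 ± 0.07 and TFB2M at -0.53 ± 0.07, and GADD45GIP1 (0.72 ± 0.04) and AURKAIP1 (0.38 ± 0.04) rose.

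The 13 mitochondrially encoded mRNAs, which mitochondrial ribosomes translate, leaned to lower values in both KD lines, with 10 lower and none higher in MDA-MB-231 (median -0.24) and 12 lower and none higher in SUM159 (median -0.26), or 76.9% and 92.3% lower against 16.5% and 31.4% of all genes. MT-CO1 was at -0.45 ± 0.03 and MT-ND6 at -0.44 ± 0.04 in the first, and MT-CO3 at -0.28 ± 0.03 and MT-ND2 at -0.33 ± 0.04 in the second. Other scalings gave 10 to 12 lower in MDA-MB-231 and 11 or 12 in SUM159, with none higher. How mitochondrial mRNAs came to be in the pooled polysome fractions was not measured, so their values show neither their total level nor their translation. In BT549 OE 8 fell, among them MT-CO1 (-0.48 ± 0.03) and MT-CO2 (-0.50 ± 0.04), and 2 rose (61.5% and 15.4%, against 35.0% and 35.6% of all genes). The cytosolic ribosomal protein mRNAs leaned to higher values: of 84 tested, 47 rose and 14 fell in MDA-MB-231 KD (27 and 27 with library size alone), 58 rose and 12 fell in SUM159 KD, and 67 rose and 11 fell in BT549 OE. The shares higher were 56.0%, 69.0% and 79.8%, against 21.2%, 28.6% and 35.6% of all genes. Among those with the smallest p-values were RPL13 (0.57 ± 0.03) and RPS3A (0.38 ± 0.03) in the first, RPL4 (-0.48 ± 0.02) in the second, and RPL4 (1.32 ± 0.02) and RPS15A (1.52 ± 0.03) in the third. Their medians were 0.10, 0.24 and 0.47, against 0.04, 0.04 and 0.17 for the mitochondrial members.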

How the data were processed

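RNA from the polysome fractions of 12 libraries (6 groups of 2) was measured by RNA-seq. The deposited values are expected counts per Ensembl transcript, estimated by the authors from reads mapped to GRCh38 (HISAT2, SAMtools and Partek are named, without versions, in the submitters' notes). In the MDA-MB-231 and SUM159 columns some entries are question marks, and the deposited expected counts there were used with these as 0, which touched no member transcript. None of the 201932 transcripts listed was at 0 in all BT549 libraries. Transcripts seen only in MDA-MB-231 or SUM159 may therefore be missing. Shares and medians over all genes cover the listed transcripts only. The methods name RPKM, but the deposited columns are not RPKM. The labels describe poly(A) selection and the methods rRNA depletion, so which was used is unclear, and how counting used strand was not given in the sources used here.

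Transcripts were named with GENCODE 44, which matched 79.6% of transcripts and 99.25% to 99.41% of counts, then summed per gene symbol and rounded. Genes were filtered with filterByExpr over the 6 groups (16538 kept) and tested with edgeR 4.0.16 in R 4.3.3 (TMM scaling, quasi-likelihood F test, 1 fit of 6 group means, 6 residual degrees of freedom, Benjamini-Hochberg over all genes kept, called at 0.05). The common dispersion was 0.000835. Log2 CPM used a prior count of 2. Tables and plots were made with Python 3.11.15, pandas 2.3.3, scipy 1.17.1 and matplotlib 3.10.9. The tests were run on simulated data with 200 genes changed per comparison, far fewer than were called in the real data. They recovered 78% to 88% of 1.5-fold and 95% to 98% of 2-fold changes, and smaller changes were not simulated. Unchanged genes made up 6.88% of the calls for MDA-MB-231 KD, 6.63% for SUM159 KD and 4.76% for BT549 OE. Alternatives were DESeq2 1.42.0, other scalings, filters and transcript sets, a replicate block and leaving out each library. The members and gene lists were chosen with earlier results of these data known. Named members were the 5 largest called changes in each direction per treatment comparison and 3 per control comparison (mean of at least 50 counts, groups not overlapping), the 5 clearest shared and opposite KD changes, those opposite in OE, the extremes per kilobase, the S18 paralogs, MRPS30, members with a changing or non-coding main transcript, and the 2 strongest calls of each other list, of which an item is not reported here. Genes named for chromosome, length or neighbors were chosen after their values were seen.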

Additional observations from a re-analysis of the deposited data

Results flagged for a closer look

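The response of the members to TRMT112 KD differed between SUM159 and MDA-MB-231, as tested by the interaction of line and KD in the edgeR fit. The KD effect was higher in SUM159 for 25 members and lower for 30, against 23.2% and 27.7% of all genes tested. With library size alone it was higher for 33 and lower for 29. Lower in SUM159, in log2, were MRPL45 (-1.05), MRPS9 (-0.99), MRPS5 (-0.90), MRPS30 (-0.84), MRPS27 (-0.79), MRPL2 (-0.79), MRPS31 (-0.69), MRPL1 (-0.63), MRPS18B (-0.63), MRPL44 (-0.60), MRPL32 (-0.46), MRPS21 (-0.43) and MRPS33 (-0.36). Higher in SUM159 were MRPL34 (0.95), MRPL20 (0.66), MRPL52 (0.56), MRPL57 (0.55), MRPS11 (0.42), MRPL17 (0.34), MRPL43 (0.26) and MRPS26 (0.23). In MRPS31, MRPL44 and MRPS21 both lines fell and SUM159 fell further, in MRPS33 both rose and MDA-MB-231 rose further, and in MRPL17 and MRPL43 both rose and SUM159 rose further, so the difference there is of size and not of direction. TRMT112 itself fell more in MDA-MB-231 than in SUM159, with a difference of 0.47 in log2 (adjusted p = 1.83e-07, edgeR).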

How the results depend on the processing

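Directions of the named members held: none of the 79 gene results reversed under any alternative. Calls were lost in 6 with library size alone, 10 on the main transcript alone, 3 with protein-coding transcripts only and 2 each with DESeq2, RLE size factors and no filter. Leaving out single libraries ended the calls of MRPL1, MRPL44, MRPL45, MRPL48, MRPS27 and MRPS31 in MDA-MB-231 KD and of MRPS7 in SUM159 KD, and moved no count of called members by over 1.5 times. The libraries of a number did not vary together (correlations 0.0162, -0.00803 and 0.0356), so replicate numbers were only names. With the replicate block, 24 members were higher and 12 lower in MDA-MB-231 KD, 31 and 30 in SUM159 KD, 43 and 19 in BT549 OE, and 26 and 32 for the difference, and no named call changed.

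With library size alone, 11 members were higher and 27 lower in MDA-MB-231 KD, 27 higher in BT549 EV against MDA-MB-231 EV and 14 higher in BT549 EV against SUM159 EV. On the main transcript alone, 14 were higher and 7 lower in MDA-MB-231 KD. Requiring an absolute log2 fold change of 0.5 as well left 1 higher and 1 lower in MDA-MB-231 KD, 3 and 12 in SUM159 KD, 16 and 3 in BT549 OE, 6 and 14 for the difference, 4 and 32 in MDA-MB-231 EV against SUM159 EV, 26 and 14 in BT549 EV against MDA-MB-231 EV, and 8 and 27 against SUM159 EV, by its construction. Of all 16538 genes, 1686, 5776 and 8402 were called at that size in the 3 treatment comparisons, a larger share than of the members each time. Large minus small subunit moved from -0.039 to -0.026 in MDA-MB-231 and from -0.038 to -0.14 in BT549 with summed counts, and by structure to 0.144 in SUM159 and -0.111 in BT549. The fall of the longest members in SUM159 KD, a set chosen after the values were seen, covered 20 to 22 of 26 under every setting, with 4 higher under RLE size factors, DESeq2, the minimum of 50 counts and protein-coding transcripts. All members had a mean over 50 counts, so that filter left the subunit difference as it was. The cause of these shifts was not tested. With 2 libraries a group, no permutation test could reach 0.05.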
